A study of Homo sapiens with 4 samples.

Results

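ANGPTL4 is a secreted protein that inhibits lipoprotein lipase, and its gene was examined here together with the genes for a paralogue (*ANGPTL8*), for the lipases of the vessel wall (*LPL*, *LIPG* and *LIPC*), for the factor that folds them (*LMF1*) and for receptors that take up lipoproteins (*VLDLR* and *LRP1*). The members were chosen by gene name, and all 8 were found among the 58243 genes of the RNA-seq tables. The data came from HK2, an immortalized cell line from human renal proximal tubule, treated with 50 μM FG-4592 (roxadustat), which stabilizes HIFα by inhibiting prolyl hydroxylases. Treatment lasted 6 h. There were 2 RNA-seq libraries and 2 HIF1α ChIP-seq replicates, all from treated cells, and whether replicates were separate cultures is not given in the sources used here. Libraries from untreated cells were not analysed here. The values are therefore levels and positions under FG-4592, with no fold change and no test.

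Triglyceride in circulating lipoproteins is hydrolysed at the vessel wall by lipoprotein lipase, which is folded in the endoplasmic reticulum with the help of LMF1 and carried to the endothelial surface by GPIHBP1. ANGPTL4 and ANGPTL8 restrain this activity, and proprotein convertases such as furin cleave ANGPTL4. VLDLR and LRP1 belong to a family of endocytic receptors that bind apolipoprotein E, and in the proximal tubule the family is best known for megalin, encoded by *LRP2*.

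The label of a proximal tubular epithelial cell was set against marker genes. Levels are given as FPKM, fragments scaled to the length of the transcript and the size of the library, summed over the transcripts of a gene. A mean FPKM of at least 1 was reached by 59.7% of protein-coding genes. Of 10 proximal tubule markers, 3 had a mean FPKM of at least 1: *PAX8* (121 and 114 in replicates 1 and 2), *GGT1* (62.3 and 58.5) and *SLC5A2* (2.59 and 1.70). *GGT1* has near-identical relatives in the genome, and how their reads were divided is uncertain. *LRP2*, *SLC22A6* and *HNF4A* were listed at 0 in both libraries, and *CUBN*, *SLC34A1*, *AQP1* and *ANPEP* were below 0.1 in both. The summed FPKM of the list was 186 and 174, most of it from *PAX8*. Thus the transporters and endocytic receptors that define a differentiated proximal tubule were mostly at or near 0, and the cells are called HK2 cells below. Of 6 epithelial markers, 5 reached an FPKM of 1, with *KRT19* the most abundant (184 and 177) and *CDH1* at 0.211 and 0.379, and the list summed to 489 and 467. Of 6 fibroblast and mesenchymal markers, 3 did, led by *FN1* (2268 and 2179), while *COL1A2* was 0.0401 and 0, and the list summed to 3602 and 3020. None of 5 adipocyte markers and none of 6 endothelial markers reached 1: the lists summed to 0.0844 and 0.0195 and to 0.0254 and 0, with *ADIPOQ*, *LEP*, *FABP4*, *PECAM1*, *KDR*, *TEK* and *GPIHBP1* listed at 0 and *CIDEC* and *CDH5* the most abundant. Of 6 hepatocyte markers only *SERPINA1* did (13.7 and 13.6), out of sums of 13.8 and 13.6, with *APOA1*, *APOB*, *APOC3* and *TTR* listed at 0. Of 5 macrophage markers *CD68* (33.6 and 31.5) and *CSF1R* (4.58 and 4.56) did, out of sums of 38.8 and 36.6, with *MRC1* listed at 0.

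*ANGPTL4* was the member with the highest level. Its FPKM was 144 in replicate 1 and 132 in replicate 2 (138 ± 8.96, SD, n = 2), which ranked 321 among 19658 protein-coding genes, above 98.4% of them. *VLDLR* followed with 28.0 and 25.1 (26.5 ± 2.01, SD, n = 2), and *LRP1*, a large receptor for remnant lipoproteins and many other ligands, with 25.7 and 23.4 (24.6 ± 1.62, SD, n = 2). *VLDLR* was slightly above *LRP1* in each library, although their ranges over the libraries overlapped. *ANGPTL4* stood above *VLDLR* by a factor of 5.15 in replicate 1 and 5.24 in replicate 2, summed over all transcripts. In transcripts annotated as coding the gap was smaller, with 49.0 and 46.3 for *ANGPTL4* and 27.3 and 24.3 for *VLDLR*.

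The lipases were far lower. *LIPG*, which encodes endothelial lipase, an enzyme that prefers the phospholipids of HDL, had an FPKM of 3.05 and 2.32 (2.69 ± 0.515, SD, n = 2), and *LMF1* of 1.205 and 1.302 (1.25 ± 0.0690, SD, n = 2). *LIPC*, the gene for hepatic lipase, had 0.263 in replicate 1, all in transcripts annotated as retaining an intron, and 0.0410 in replicate 2, all in the coding transcript LIPC-203. *LPL* was listed at 0 in replicate 1 and at 0.0446 in replicate 2, where it rested on 894 bases of coverage (reads times their length) over a transcript of 3846 bases. *ANGPTL8*, which encodes a smaller relative of ANGPTL4 that acts with other family members on LPL, was listed at 0 in both. *LIPC* and *LPL* overlapped in level, and both rest on little coverage. The main target of ANGPTL4 was thus at or near 0 in the cells in which *ANGPTL4* itself was among the higher genes.

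Of the 8 members, 5 had a mean FPKM of at least 1, beside 59.7% of protein-coding genes and 23.1% of all genes. By the largest single transcript of a gene in place of the sum, 3 did, and *LIPG* and *LMF1* did not. The median over the members was 1.97, against 3.37 over protein-coding genes. The libraries differed for *ANGPTL4*, *LRP1* and *VLDLR* about as they did over expressed genes, more for *LIPG* and less for *LMF1*. Adding 1 to each FPKM, the log2 of replicate 2 over replicate 1 was -0.13 for *ANGPTL4* and *LRP1*, -0.15 for *VLDLR*, -0.29 for *LIPG* and 0.06 for *LMF1*, while the median absolute ratio over the 13467 genes that reached a mean FPKM of 1 was 0.13.

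**Figure D1:**
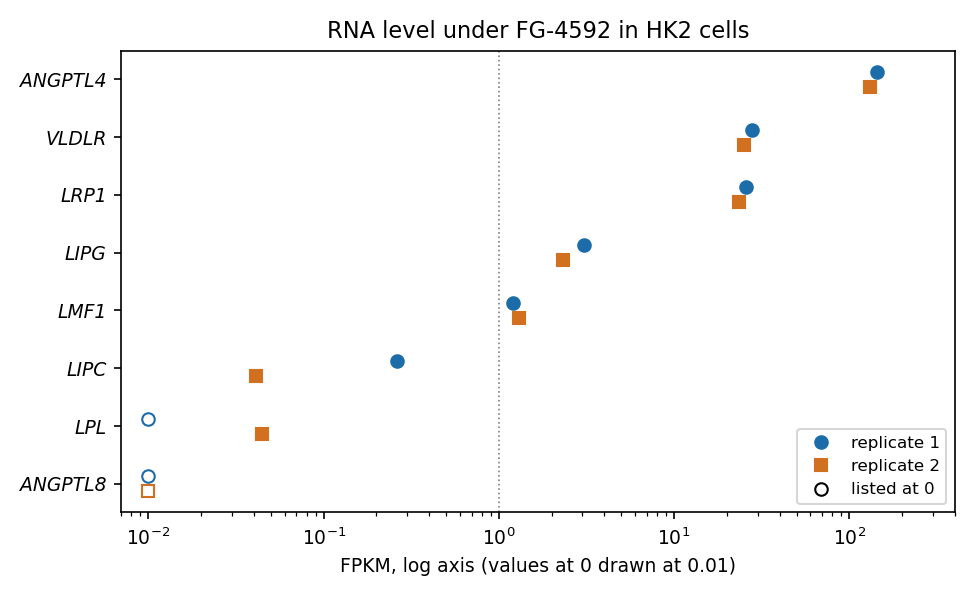
FPKM (log axis) of the 8 members in RNA-seq replicate 1 (circles) and replicate 2 (squares), with the dotted line at 1 and open symbols for values listed at 0, drawn at 0.01. *ANGPTL4* sits at 144 and 132, and *VLDLR* and *LRP1* lie between 23.4 and 28.0. *ANGPTL8* in both replicates and *LPL* in replicate 1 are listed at 0.

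The sequence in front of *ANGPTL4* is shown because the HIF1α peaks of both replicates lie there. HIF1α binds DNA with ARNT at response elements whose core reads ACGTG or GCGTG, and both spellings were sought on both strands. The gene lies at chr19:8428173-8439254 on the plus strand of GRCh37, and its transcripts start either at the upstream end or in a cluster near 8429040, where the most abundant transcript begins. The 300 bases at chr19:8428739-8429038, in front of that cluster and in an intron of the longer transcripts, hold 1 core (ACGTG on the minus strand, in capitals) and a TATA-like stretch near their end. A GCGTG core on the plus strand lies further upstream, in an untranslated exon of the longer transcripts, and is given with its neighbourhood (GRCh37, chr19:8428700-8428729).
ANGPTL4 upstream of the main start: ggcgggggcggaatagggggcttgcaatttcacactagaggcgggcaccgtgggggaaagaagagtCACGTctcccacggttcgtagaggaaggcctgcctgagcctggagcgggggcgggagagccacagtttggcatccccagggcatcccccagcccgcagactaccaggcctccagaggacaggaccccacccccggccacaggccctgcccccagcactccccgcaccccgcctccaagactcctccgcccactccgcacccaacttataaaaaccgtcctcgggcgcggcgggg
ANGPTL4 GCGTG core: tcttgacctcaaGCGTGcgccctctccgcc

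ChIP-seq peaks are regions where DNA recovered with the HIF1α antibody piles up, and the deposited lists give their positions and no height, so that no peak can be called stronger than another. Replicate 1 lists 1689 peaks and replicate 2 lists 16953. In replicate 1 a peak of 475 bp at chr19:8428542-8429016 covered most of this stretch, up to -24 bp from the main start, with its centre at -261 bp from the main start. In replicate 2 a peak of 293 bp at chr19:8428618-8428910 had its centre at -276 bp and lay wholly inside the replicate 1 peak. Both held the same 2 cores, 65 and 28 bp from the centre in replicate 1 and 50 and 43 bp in replicate 2. Of the bases of these peaks, 40.6% and 39.9% were annotated exon. The median replicate 2 peak had 100% of its bases in exons and the median replicate 1 peak 14.7%, and 64.5% of the replicate 2 peaks lay wholly in exons, which the *ANGPTL4* peak did not.

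Replicate 1 had another *ANGPTL4* peak, of 234 bp, centred at -1972 bp from the main start. It lies upstream of *ANGPTL4*, with none of its bases in an annotated exon. It holds 1 core, ACGTG on the minus strand, 39 bp from its centre. Replicate 2 listed no peak there. Its centre is at -1105 bp from the upstream start of the gene, so that only its near edge falls within 1 kb, and by that edge it is counted with the promoter peaks below. It is shown whole for comparison with the sequence at the main start (chr19:8426952-8427185, GRCh37, plus strand, core in capitals).
ANGPTL4 peak further upstream: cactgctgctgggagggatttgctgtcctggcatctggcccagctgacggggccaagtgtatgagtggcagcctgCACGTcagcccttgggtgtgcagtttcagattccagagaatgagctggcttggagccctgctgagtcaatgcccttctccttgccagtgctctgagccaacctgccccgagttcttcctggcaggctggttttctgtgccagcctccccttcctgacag

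*VLDLR* (chr9:2621182-2660056, GRCh37, plus strand) had peaks in both replicates, but at different places. In replicate 1 a peak of 404 bp at chr9:2621967-2622370 was centred 381 bp after the main start. Of its bases, 305 lie in exon 1 of VLDLR-203, the most abundant transcript, with 223 untranslated and 82 coding, and 271 lie in exons of the antisense gene *VLDLR-AS1*, a start of which is 3 bp from the peak. Exons of either gene cover 100% of the peak, against the median of 14.7% in replicate 1, where 11.7% of peaks lay wholly in exons. Its only core, ACGTG on the minus strand, lies 29 bp from the centre and begins a few bases after the start codon. The coding end of exon 1 and the rest of the peak, which is intron of VLDLR-203 and exon of *VLDLR-AS1*, read as follows at chr9:2622190-2622370, with the core in capitals.
VLDLR exon 1 and intron: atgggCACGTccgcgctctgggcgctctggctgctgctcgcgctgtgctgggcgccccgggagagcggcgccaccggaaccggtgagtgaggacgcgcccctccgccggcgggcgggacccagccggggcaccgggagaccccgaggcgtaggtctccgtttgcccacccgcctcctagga

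In replicate 2 the *VLDLR* peaks lay 21603 bp and 32428 bp after the main start, of 248 and 605 bp, with all their bases in exons. The nearer one counts as a promoter peak only through start sites annotated inside the gene, and holds no core. The other lies in the untranslated part of the last exon. No *VLDLR* peak was shared by the replicates, whose lists hold 1689 and 16953 peaks. How often peaks of the lists overlap over all genes is not given here.

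*LRP1* (chr12:57522266-57607144, GRCh37, plus strand) had no peak in replicate 1 within 408513 bp of the gene. Replicate 2 listed 3 peaks in the gene body, centred 57229, 78139 and 84318 bp after the start, with 100%, 98.0% and 100% of their bases in exons and no core within 100 bases of a centre. The remaining members had no peak within 10 kb in either replicate. The nearest was 43806 bp from *ANGPTL8*, 25761 bp from *LIPC*, 64152 bp from *LIPG*, 123262 bp from *LMF1* and 253066 bp from *LPL*, all in replicate 2, and in replicate 1 the distances in the same order were 47540, 802303, 584567, 157906 and 587165 bp.

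A promoter peak was one that overlapped the 1 kb on either side of any annotated start site. By that measure 2 of the 8 members, *ANGPTL4* and *VLDLR*, had one in replicate 1, beside 5.49% of protein-coding genes. The same members had one in replicate 2, beside 14% of protein-coding genes, and in both replicates, beside 1.79%. The share in both was 0.779% of the 55859 genes found in both annotations and 9.76% of the 492 protein-coding genes that reached a mean FPKM of 100, a level that *ANGPTL4* reached. With the most upstream start site alone, only *ANGPTL4* kept a promoter peak in both. A peak within 10 kb of the gene in either replicate was found for 3 of 8 members, beside 53% of protein-coding genes, and within 50 kb for 5 of 8, beside 71.3%, so these shares were not above the background.

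Of the 5 promoter peaks of members, 4 had a core within 100 bases of the centre: all 3 of replicate 1, among them the *ANGPTL4* peak at the edge of the window, and 1 of 2 in replicate 2. A core there was common in replicate 1, in 86.1% of all peaks and 92.4% of promoter peaks, and less so in replicate 2, in 26.6% and 30.7%. The *ANGPTL4* peak was therefore in the smaller part of the replicate 2 list, and the member peaks of replicate 1 were like most of their list.

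**Figure D2:**
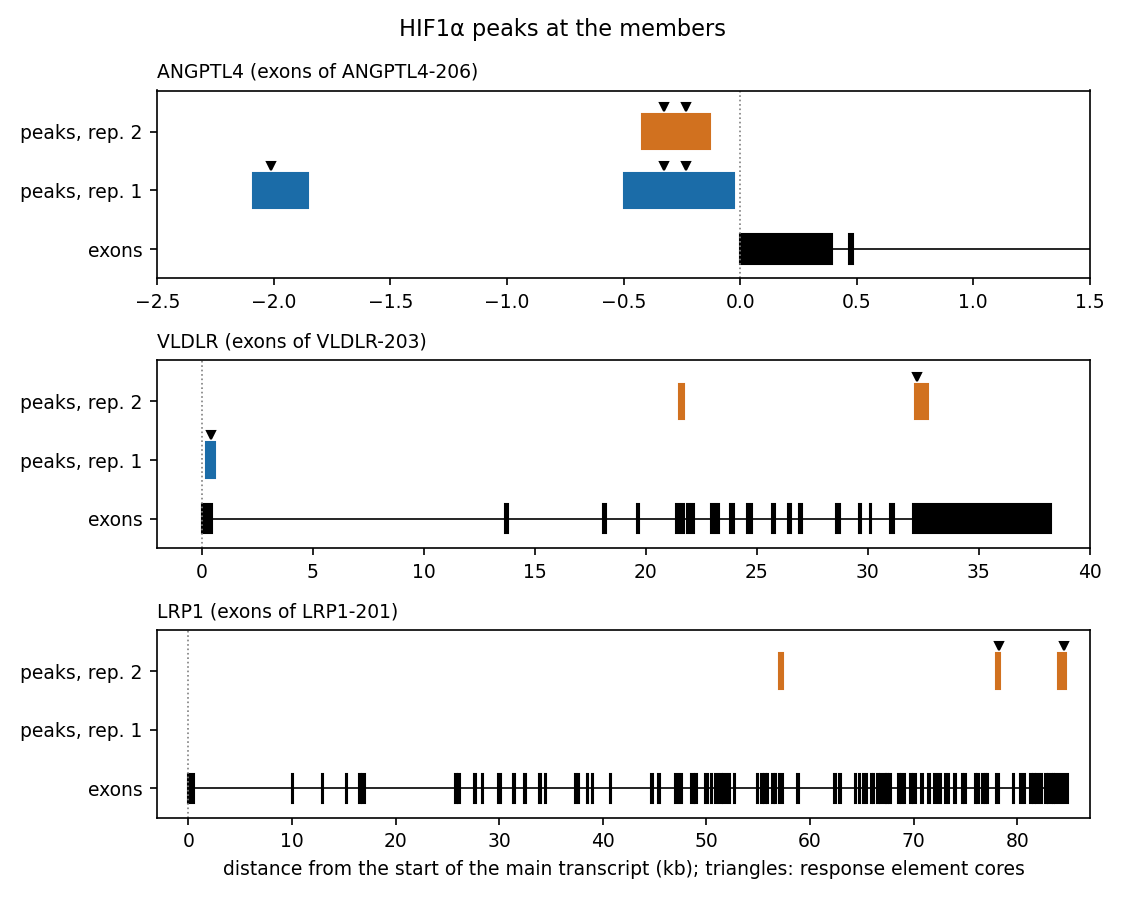
HIF1α peaks of replicate 1 (blue) and replicate 2 (orange) against the distance in kb from the start of the most abundant transcript, with its exons in black and response element cores inside peaks as triangles. At *ANGPTL4* the peaks of both replicates overlap in front of the start, at *VLDLR* they lie at separate places, and at *LRP1* there are 3 peaks of replicate 2 alone.

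Promoters from RefSeq (GRCh38.p14, 250 bases before to 50 after a start) were matched by symbol for 7 of the 8 members. A core was present in 48.4% of all 35116 such promoters. The *VLDLR* promoter held 5 cores, *LIPG* 3, *ANGPTL8* 2, and *ANGPTL4* and *LMF1* 1 each, while *LRP1* and *LIPC* held none. All were GCGTG except the single ACGTG of *ANGPTL4*. The bases before the start are given for *VLDLR*, where the peak of replicate 1 begins behind them, and for *LIPG*, *ANGPTL8* and *LRP1*, which had no promoter peak. All lie on the plus strand, at chr9:2621537-2621786, chr18:49561807-49562056, chr19:11239369-11239618 and chr12:57128233-57128482, with cores in capitals, and those in *VLDLR* partly overlap each other.
VLDLR promoter: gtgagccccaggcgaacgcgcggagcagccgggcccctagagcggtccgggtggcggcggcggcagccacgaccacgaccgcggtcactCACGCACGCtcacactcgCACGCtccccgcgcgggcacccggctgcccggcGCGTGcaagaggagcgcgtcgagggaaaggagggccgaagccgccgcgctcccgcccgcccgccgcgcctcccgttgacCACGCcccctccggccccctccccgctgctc
LIPG promoter: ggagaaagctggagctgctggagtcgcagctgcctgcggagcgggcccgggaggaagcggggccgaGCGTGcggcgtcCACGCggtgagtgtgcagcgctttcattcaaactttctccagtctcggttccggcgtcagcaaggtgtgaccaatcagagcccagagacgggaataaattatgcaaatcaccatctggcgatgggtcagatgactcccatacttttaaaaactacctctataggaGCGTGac
ANGPTL8 promoter: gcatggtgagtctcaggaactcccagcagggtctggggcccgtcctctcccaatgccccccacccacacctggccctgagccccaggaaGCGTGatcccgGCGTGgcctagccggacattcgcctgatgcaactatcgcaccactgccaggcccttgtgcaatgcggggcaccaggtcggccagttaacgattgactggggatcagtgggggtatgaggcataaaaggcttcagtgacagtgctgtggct
LRP1 promoter: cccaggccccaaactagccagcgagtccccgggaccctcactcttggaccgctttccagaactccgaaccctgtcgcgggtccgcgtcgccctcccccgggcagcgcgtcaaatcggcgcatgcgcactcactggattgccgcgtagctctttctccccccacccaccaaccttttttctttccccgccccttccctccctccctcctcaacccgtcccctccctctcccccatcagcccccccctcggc

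The tables split each gene into transcripts, whose levels StringTie estimated from reads that they largely share. *ANGPTL4* has 11. The highest, ANGPTL4-206, had an FPKM of 85.8 and 77.0 (81.4 ± 6.24, SD, n = 2), or 59.5% and 58.5% of the gene. It is annotated as a target of nonsense-mediated decay, a pathway that degrades messages with a premature stop codon. The coding transcripts ANGPTL4-202 (23.2 and 21.8) and ANGPTL4-201 (18.7 and 21.5) came next, in this order in both libraries. Coding transcripts together made up 34.0% and 35.2% of the FPKM of *ANGPTL4*, against 97.5% and 96.8% for *VLDLR*, 95.6% and 96.7% for *LRP1* and 85.3% and 86.0% for *LIPG*. Among 6160 protein-coding genes that reached a mean FPKM of 10, 168 (2.73%) had a transcript of this class as their highest. *LMF1* was spread over many models, with 55.0% and 37.96% in coding ones.

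**Figure D3:**
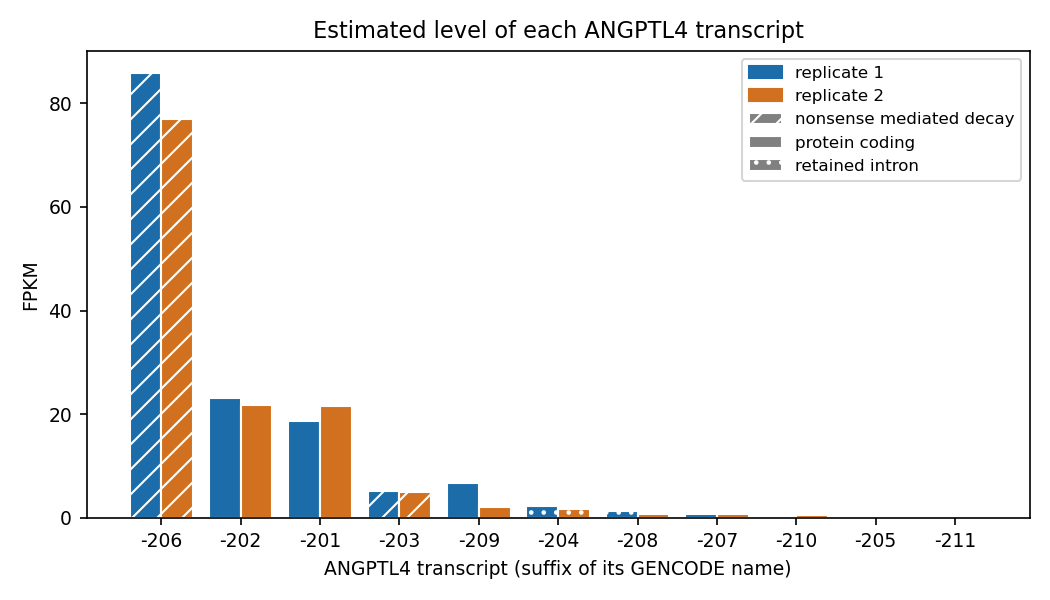
FPKM of each of the 11 *ANGPTL4* transcripts in replicate 1 (blue) and replicate 2 (orange), hatched by their annotated class. ANGPTL4-206, of the nonsense-mediated decay class, stands at 85.8 and 77.0, and the coding ANGPTL4-202 and ANGPTL4-201 between 18.7 and 23.2.

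From ANGPTL4-206 a stretch of 70 bases near the end of exon 1 of ANGPTL4-201 is spliced out, a length that is not a multiple of 3. The stretch, in capitals after 20 bases of exon 1 and before the last 18 bases of the exon and 2 bases of intron (chr19:8429416-8429525, GRCh37, plus strand), begins with GT and ends with AG.
ANGPTL4 exon 1: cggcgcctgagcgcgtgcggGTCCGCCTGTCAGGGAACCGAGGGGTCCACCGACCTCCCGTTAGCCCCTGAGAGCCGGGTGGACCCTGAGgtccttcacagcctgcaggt
Coverage, the mean number of reads over a base, was summed here over the transcripts. It was 127 and 63.2 over the 5′ part of exon 1, 86.0 and 43.1 over the stretch and 181 and 124 over the last 18 bases of the exon. The stretch thus kept 67.5% and 68.1% of the coverage of the part before it, while ANGPTL4-206, which lacks it, was given more than 58% of the gene's FPKM. The whole of exon 1 had 7.58% and 4.44% of the coverage of exon 2. The models of ANGPTL4-206 and ANGPTL4-201 also differ in the last exon, which in ANGPTL4-201 had a coverage of 766 and 693. Which of these differences set the split between them was not tested. The exon of 114 bases that ANGPTL4-202 lacks had a coverage of 1151 and 1044, which was 0.766 and 0.778 of the mean of its neighbours. Other inner exons of ANGPTL4-201 varied more, from 0.364 and 0.365 at exon 6 to 2.04 and 2.11 at exon 2, so that this ratio alone does not show skipping.

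*VLDLR* has 2 main transcripts. VLDLR-203 had an FPKM of 13.7 and 16.0 and VLDLR-202 of 12.8 and 7.66, and the share of VLDLR-203 in the gene was 49.1% and 63.9%, so the libraries differed here more than for the gene as a whole. VLDLR-202 lacks exon 16, of 84 bases, which encodes the O-linked sugar domain and separates the known forms of the receptor. It lies at chr9:2651415-2651498 (GRCh37, plus strand) and is given whole.
VLDLR exon 16: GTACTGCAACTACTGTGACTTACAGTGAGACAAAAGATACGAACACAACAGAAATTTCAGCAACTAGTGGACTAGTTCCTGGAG
Coverage of exon 16 was 236 and 266, against 341 and 388 for exon 15 and 280 and 300.4 for exon 17. That was 0.761 and 0.772 of the mean of its neighbours. The models also differ in length, with 9163 bases for VLDLR-203 and 3240 for VLDLR-202, and the last exon of VLDLR-203, of 6221 bases, had a coverage of 39.9 and 40.6. Which difference set their shares was not tested. *LRP1* was simpler, with 92.8% and 93.9% of its FPKM in the full-length LRP1-201, of 89 exons.

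**Figure D4:**
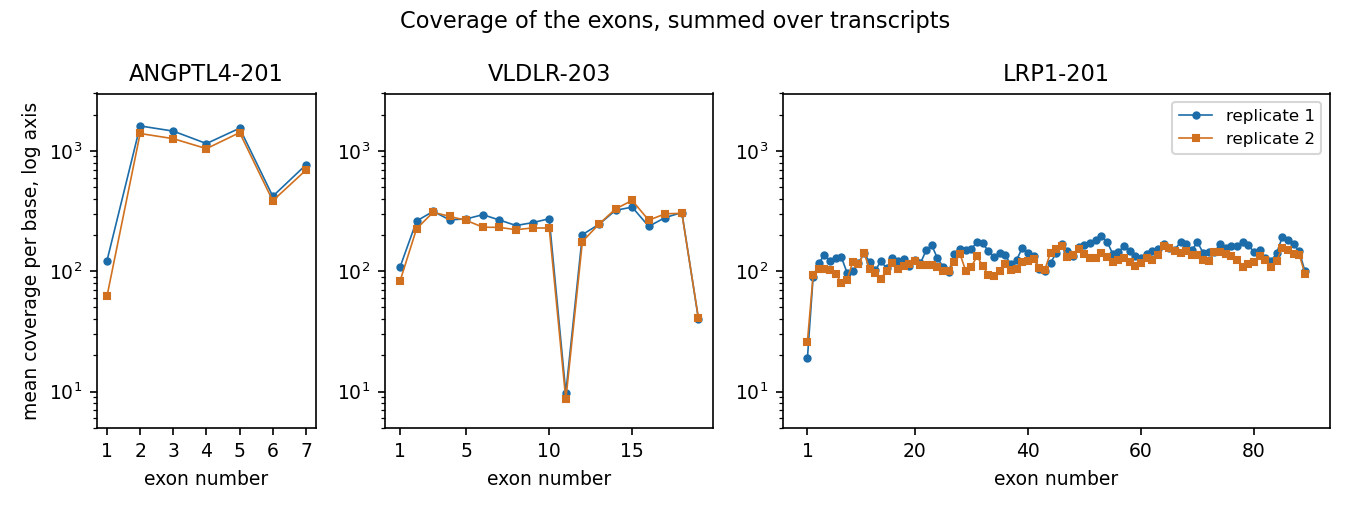
Mean coverage per base (log axis), summed over transcripts, for each exon of ANGPTL4-201, VLDLR-203 and LRP1-201 in replicate 1 (circles) and replicate 2 (squares). Exon 1 of *ANGPTL4* is at 122 and 62.0 beside 1612 and 1396 in exon 2, exon 11 of *VLDLR* drops to 9.76 and 8.61, and the exons of *LRP1* after exon 1 lie on a near-level line.

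The rest of the pathway was described from lists of genes. Of 7 angiopoietin-like genes, 3 had a mean FPKM of at least 1: *ANGPTL4*, *ANGPTL2* (2.82 and 3.23) and *ANGPTL6* (1.42 and 1.75). *ANGPTL5* was listed at 0 like *ANGPTL8*. The median of the list was 0.0760. Of 4 convertases that can cleave ANGPTL4, *FURIN* had 10.7 and 11.5 and *PCSK7* 9.95 and 10.3, while *PCSK5* was 0.0680 and 0.0381 and *PCSK6* was listed at 0. Transcripts of *ANGPTL4* and of convertases were thus listed together, and protein was not measured here.

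Among 10 genes for the maturation and export of lipases, 9 reached 1, with a median of 84.1. They are mainly general chaperones of the endoplasmic reticulum, such as *CALR* (864 and 843), *P4HB* (618 and 609) and *HSPA5* (392 and 380.3). *SEL1L*, whose product helps LPL leave the endoplasmic reticulum, had 25.2 and 28.7, and *LMF2*, a relative of *LMF1*, had 52.5 and 42.7. *SDC1*, a heparan sulfate proteoglycan to which lipases bind, had 31.5 and 43.3. *GPIHBP1*, which carries LPL across endothelium, was listed at 0. Of 8 genes for lipase cofactors and apolipoproteins, *APOE* (22.6 and 18.1) and *APOC1* (5.85 and 5.96) reached 1, and the other 6, *APOC2* (the activator of LPL), *APOC3*, *APOA5*, *APOB*, *APOA1* and *APOA4*, were listed at 0.

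Of 16 genes listed as lipoprotein receptors, 13 reached 1, with a median of 11.2. The list includes genes that share the LRP family name, and uptake of lipoproteins was not measured here. *SCARB1*, the HDL receptor, had 35.1 and 33.1. *VLDLR* and *LRP1* came next in this list, below it in each library. They were followed by *LRP12* (19.6 and 21.4), *LSR* (17.5 and 18.8), *LRP11* (14.5 and 16.1) and *LRP10* (15.7 and 14.2). *LRP6* (11.6 and 12.3), *LRP8* (10.4 and 10.6), *SORT1* (9.21 and 9.85), *LRP5* (7.10 and 6.31), *LRP3* (5.20 and 7.94) and *LRP4* (5.18 and 4.95) were lower. *LRP1B* and *SORL1* were near 0.1 or below, and *LRP2* was listed at 0, so the receptor that dominates endocytosis in the proximal tubule in vivo was the one without signal.

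**Figure D5:**
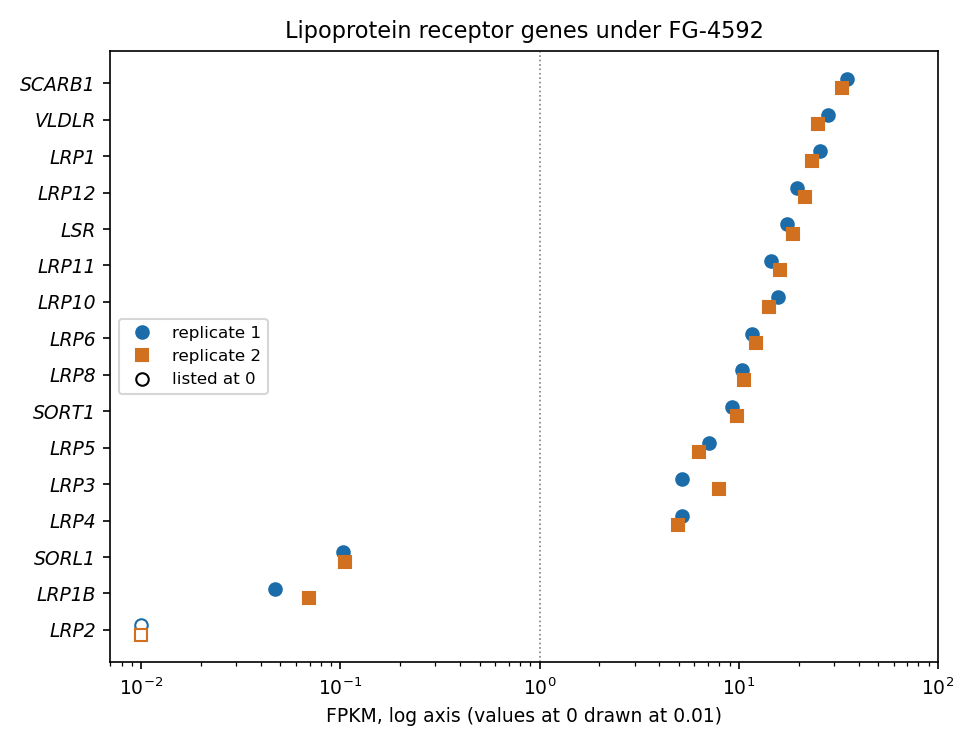
FPKM (log axis) of 16 genes listed as lipoprotein receptors in replicate 1 (circles) and replicate 2 (squares), with the dotted line at 1 and open symbols for values listed at 0, drawn at 0.01. *VLDLR* and *LRP1* lie just under *SCARB1*, 13 genes lie to the right of the line, and *LRP2* is listed at 0.

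Of 9 genes for chaperones, adaptors and degraders of these receptors, 7 reached 1, with a median of 11.2. The chaperones *LRPAP1* (21.5 and 18.8) and *MESD* (10.9 and 11.5) and the sorting factor *SNX17* (25.6 and 25.3) were at levels like those of the receptors. The adaptors *DAB2* (12.2 and 10.6) and *GULP1* (10.0 and 12.7) were lower than *SNX17*, as was *AMN* (3.31 and 2.95), while *DAB1* was listed at 0 and *CUBN* was 0.0716 and 0.0469. *MYLIP*, whose product sends VLDLR to degradation, had 1.65 and 1.97.

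Some members overlap other genes, and whether the libraries kept the strand is not given in the sources used here. *ANGPTL8* lies inside *DOCK6* on the other strand, which had 10.0 and 9.56, and was nonetheless listed at 0. *STAT6*, at 37.2 and 36.7, overlaps the start of *LRP1* on the other strand, and *VLDLR-AS1*, at 1.83 and 1.18, that of *VLDLR*. A noncoding gene on the same strand as *LMF1* and overlapping it had 1.04 and 1.94, close to *LMF1* itself, so the FPKM of *LMF1* is uncertain. Reads of such pairs may not be told apart where they overlap. These levels are of bulk RNA, in which fewer cells with a transcript and less of it per cell cannot be told apart.

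Likeness to *ANGPTL4* was sought in level alone, among the 435 genes with a promoter peak in both ChIP replicates, by the difference in log2(mean FPKM + 1) over the 2 RNA-seq libraries. The nearest were *NIBAN2* (-0.01), *VDAC1* (0.03), *EIF4A1* (0.07), *RPN1* (0.11) and *EIF3B* (-0.13), with mean FPKM from 126 to 149. As at *ANGPTL4*, the promoter peaks of the replicates overlapped at *NIBAN2*, *VDAC1* and *EIF3B*, and they did not at *EIF4A1* and *RPN1*. A core within 100 bases of the centre was present in both replicates at *NIBAN2*, *VDAC1* and *RPN1* as at *ANGPTL4*, and in replicate 1 alone at *EIF4A1* and *EIF3B*. In replicate 2, the promoter peaks of *VDAC1*, *EIF4A1*, *RPN1* and *EIF3B* had from 98.2% to 100% of their bases in exons, and that of *NIBAN2* had 25%.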

How the data were processed

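Condition and replicate came from the sample labels, and the time of treatment from the methods of the paper. Per the file headers, the authors estimated coverage, FPKM and TPM for 200401 transcripts with StringTie 1.3.3 on GENCODE 27, after trimming with cutadapt and mapping with HISAT2, versions not given in the sources used here. The deposited tables hold no read counts, and bases of coverage summed to 4442 and 4202 Mb. The methods name hg19, but *ANGPTL4* starts at 8363289 in the tables, a GRCh38 position, and at 8428173 on GRCh37. The authors aligned the ChIP-seq reads to hg19 with Bowtie2 and called peaks with MACS2 for each replicate. The deposited lists hold positions only, and the depth behind them is unknown.

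FPKM was summed per gene, pseudoautosomal copies together, and joined to the peaks through Ensembl identifiers in GENCODE 44 on GRCh37. *LPL* carries another name tag in replicate 1, like 32186 transcripts without reads there, and was matched by identifier. Transcript classes are those of GENCODE 44. Overlap meant at least 1 bp. Exon coverage was taken over the exons of the highest transcript of a gene, for *ANGPTL4* those of ANGPTL4-201, and the map of peaks shows the highest transcript of each gene. Cores were sought in peaks on the chromosomes of the reference, which left out 28 and 298 peaks. The members and lists were chosen with earlier results of these data known. The named genes are the members, the genes of the lists that reach a mean FPKM of 1 or stand at 0 in both libraries, in part by counts, and the 5 genes nearest to *ANGPTL4* in level. Genes of the lists between these limits, exon 11 of *VLDLR* and the overlapping genes were named after their values were seen. Some genes of the lists and 1 planned ratio that needs such a gene are not reported here. No test was run. The code was tested on simulated data. Python 3.11.15 with numpy 2.4.6 and matplotlib 3.10.9 was used.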

Additional observations from a re-analysis of the deposited data

How the results depend on the processing

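With 2 libraries a SD is imprecise, and nothing here compares treated with untreated cells. The mean of *ANGPTL4*, 138 FPKM, was 81.4 for its largest single transcript, 381 in TPM and 171 as bases of coverage scaled to the library and to length, the last 2 being other scales. Leaving out a replicate gave 132 to 144. Of the members, 3 in place of 5 reached a level of 1 when the largest single transcript was used, and 3 reached an FPKM of 5. The mean of *LIPG* and of *LMF1* reached 1 only as a sum over transcripts. Members with a promoter peak in both replicates fell from 2 to 1 with the most upstream start site only and, in alternatives chosen after seeing the data, with the start of the highest transcript only and with peaks that have a base outside exons. *VLDLR* was the member lost. Other promoter windows, and the centre of the peak in place of any overlap, left the count at 2. Within 50 kb in place of 10 kb, 5 members had a peak in either replicate, beside 71.3% of protein-coding genes. Within 10 kb the count was 3, and leaving out a replicate gave 2 to 3. Promoter peaks with a core near the centre were 4, and leaving out a replicate gave 1 to 3, since fewer peaks remained. The share of ANGPTL4-206 was 59.0% in FPKM and TPM, and 58.5% to 59.5% without a replicate. The log2 ratios of the replicates kept their sign with pseudocounts of 0.1 and 0. The cause of these changes was not tested beyond the construction of each alternative. No paired test was run, and *ANGPTL4* was compared with *VLDLR* within each library.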

Other observations

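Coverage of *VLDLR* lay between 177 and 388 over its inner exons except at exon 11, of 219 bases, where it was 9.76 in replicate 1 and 8.61 in replicate 2, against 273 and 228 in exon 10 and 202 and 177 in exon 12. The ratio to the mean of the neighbours was 0.0411 and 0.0425. Among 57968 inner exons of 5834 protein-coding genes that reached a mean FPKM of 10, 83 (0.143%) had a ratio as low in both libraries. The median was 1.09, taking the higher ratio of the libraries for each exon. The cause was not tested. In *LRP1* the inner exons stayed between 0.805 and 1.42 times their neighbours in both libraries. The FPKM of *VLDLR* is an average over all of its exons.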
